A study of Drosophila melanogaster with 4 samples.

Results

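Kinesins and dyneins are the motor proteins that walk along microtubules on ATP. Kinesins mostly move toward the growing plus ends, build and shorten spindles and carry cargo outward, whereas cytoplasmic dynein moves toward the minus ends, positions spindles and nuclei and, in the early Drosophila embryo, carries RNA. A separate set of dynein heavy chains drives the beating of axonemes, which in the fly are found in sperm tails and in mechanosensory neurons. The motor genes were taken by name, as every gene whose single symbol in the array annotation began with Klp and a digit, Khc, Klc, Kif, Dhc, Dlic or Dnah, or was unc-104, ncd, nod, cmet, cana, neb, pav or sub. This gave 25 of the 10804 measured genes, 17 of them kinesin genes and 8 dynein genes, read by 46 probes. The name rule met 8 more genes of the RefSeq table, among them Khc, pav, Klp3A and Klp64D, which were not analysed here.

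The RNA came from pole cells, the germ-line precursors of Drosophila melanogaster, isolated with FACS out of stage 8 to 14 embryos. All fathers carried EGFP-Vas, the germ-line marker used for the sort, and a UAS transgene for the kinase Tao, either tao-1(D168A), which the labels call dominant negative, or tao-1(D168D), which the sample descriptions give as overexpression, the sample titles as gof and the series title apparently as the wild-type form. Driven cells had mothers homozygous for nosGal4:VP16, a driver active in the germ line, and non-driven cells had yw mothers, so that maternal genotype and transgene expression cannot be told apart in either form. Each form was set against its own non-driven cells on 2 arrays with a red and a green channel. They are called here the Cy3 array and the Cy5 array of the form, after the dye that the driven RNA carried.

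All values below are log2 ratios of driven over non-driven cells, averaged over the probes of a gene. The arrays of a form are a dye swap of the same RNA and count as 1 replicate, so a form has no replicate check, and ± after a form mean is the distance of either array from it, which covers hybridisation and dye only. Over all genes the arrays of a form agreed poorly, with a Pearson correlation of -0.10 for D168A and 0.01 for D168D. Between the forms, the Cy3 arrays correlated at 0.36 and the Cy5 arrays at 0.15. Tao, the targeted gene, was at 2.91 ± 0.07 with D168A and 3.01 ± 0.02 with D168D and was above 0 on 4 of 4 arrays. Only ratios were used here, so the levels of the motors, of germ-line markers and of markers of other cells are unknown, and in a sorted bulk sample fewer cells of a type and less RNA per cell cannot be told apart. Of 10 measured germ-line markers, 9 were above 0 in each form, beside 53.2% of all genes with D168A and 47.0% with D168D. Their medians were 0.09 and 0.14, and with D168A they ran from -0.44 to 0.43. On the Cy3 arrays 8 of 10 were above 0 in each form, and on the Cy5 arrays 6 with D168A and 5 with D168D. One sign on all 4 arrays was kept by 2 of 10, beside 17.6% of all genes. The 8 measured markers of neurons and ciliated sensory neurons had medians of 0.04 and 0.03 with D168A and D168D. Those of hemocytes and fat body (4 measured) had 0.13 and 0.21, of epidermis and trachea (2) -0.11 and -0.23, of midgut (2) 0.22 and -0.20, and the 1 measured muscle marker was at 0.10 and -0.22. The 4 hemocyte and fat body markers went apart: 1 was below 0 in each form, and with D168D they ran from -1.06 to 0.28. Of these 4, 1 was at least 2-fold higher with D168A than with D168D in both dye orientations. The part of such cells in the motor ratios was not tested.

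The first question was whether any motor gene differed between driven and non-driven cells. A gene counted as called if both arrays of a form showed it changed by 2-fold or more the same way. By that rule 0 of 25 motor genes were called with D168A and 0 of 25 with D168D, against 0.157% and 0.167% of all genes, so a count of 0 among 25 is near the background. None of the motor genes reached 2-fold on even a single array, where 5.07% of all genes did so on at least 1. Of the 100 values that the 25 genes gave on the 4 arrays, 97 lay within 0.5 of zero. The value farthest from zero was that of the dynein heavy chain gene Dhc36C on one D168D array, at -0.79. Averaged over both arrays, all 25 genes were within 1.5-fold of the non-driven cells in each form, as were 98.1% of all genes with D168A and 96.7% with D168D. The medians of the 25 genes were -0.03 with D168A and 0.07 with D168D, beside 0.01 and -0.01 over all genes.

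**Figure D1:**
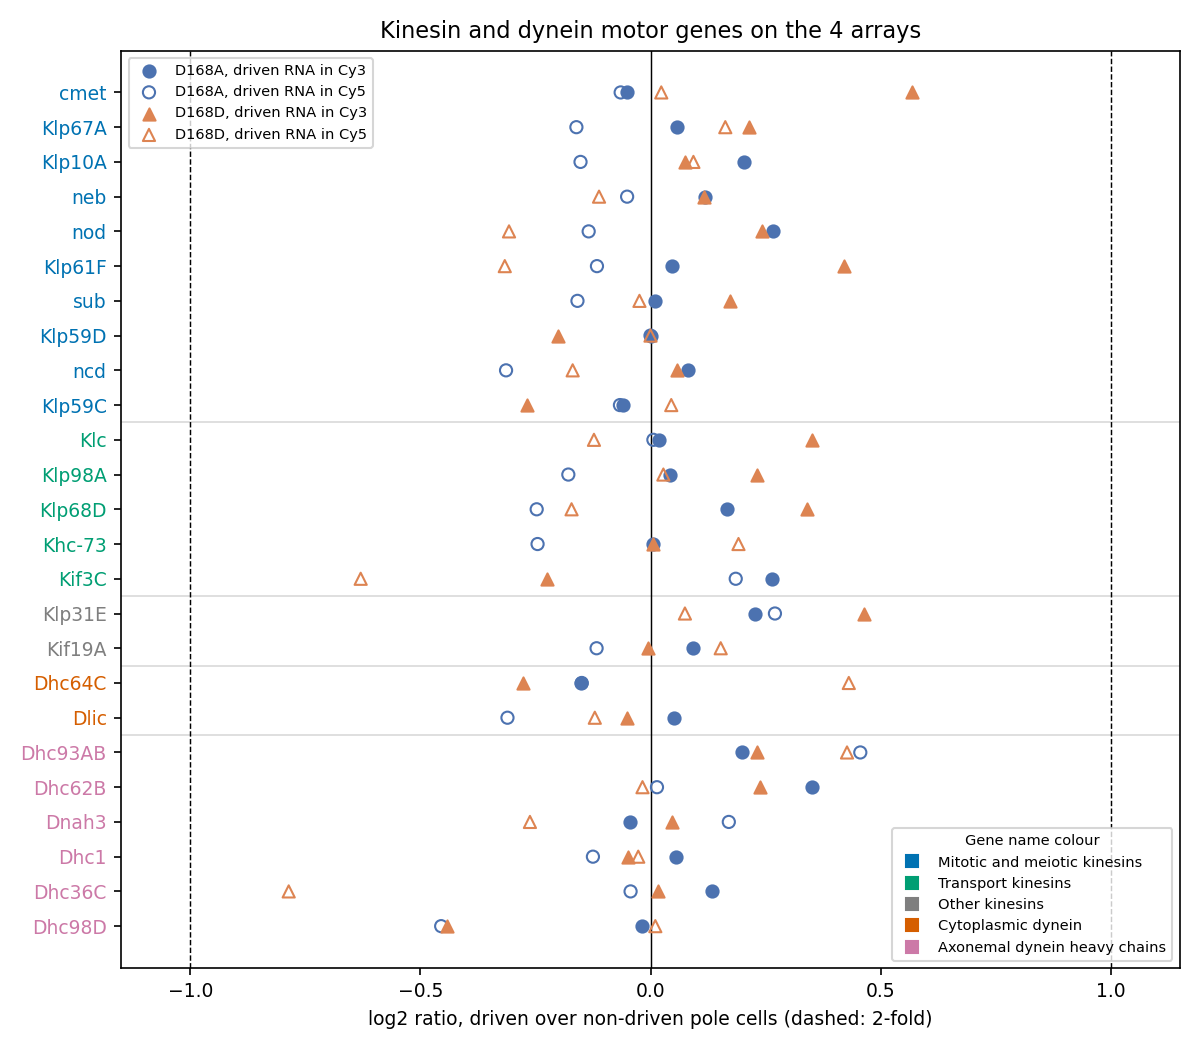
Log2 ratio of driven over non-driven pole cells (x axis) for each of the 25 motor genes (rows, grouped by role) on each of the 4 arrays. Filled symbols are the Cy3 arrays and open symbols the Cy5 arrays, named after the dye of the driven RNA; no symbol reaches the dashed 2-fold lines, and 3 of the 100 values lie 0.5 or more from zero.

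Of the measured kinesins, 10 act chiefly in spindles. Klp61F, the bipolar motor that slides spindle microtubules apart, was at 0.05 on the Cy3 array and -0.12 on the Cy5 array of D168A, and at 0.42 and -0.32 on those of D168D. Values by array are given in that order throughout. Its form means were -0.03 ± 0.08 and 0.05 ± 0.37, so the arrays of each form stood on opposite sides of 0 and the direction is unsettled. ncd, the minus-end directed kinesin that gathers the poles of the meiotic spindle, gave 0.08 and -0.31 on the D168A arrays and 0.06 and -0.17 on those of D168D. It too was above 0 on both Cy3 arrays and below 0 on both Cy5 arrays. Klp10A, which takes microtubules apart at spindle poles, gave 0.20 and -0.15 on the D168A arrays and 0.07 and 0.09 on those of D168D. Both of its D168D arrays were above 0, but its probes disagreed on the Cy5 array.

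cmet, a kinetochore motor of the CENP-E family, was at -0.05 and -0.06 on the D168A arrays and at 0.57 and 0.02 on the D168D arrays. Its arrays were below 0 with D168A and above 0 with D168D, although the D168D arrays differed widely from each other. That the arrays of one form lie above 0 and those of the other below it holds for 2 motor genes, cmet and Kif3C, and for 4.91% of all genes. Klp67A, a kinesin that limits spindle length, gave 0.06 and -0.16 on the D168A arrays and 0.21 and 0.16 on those of D168D. sub, a kinesin needed for the oocyte spindle, gave 0.01 and -0.16 on the former and 0.17 and -0.02 on the latter. Neither gene kept one side of 0 on all arrays.

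The remaining spindle motors lay close to zero. nod, the chromokinesin that holds unexchanged chromosomes on the oocyte spindle, was at 0.07 ± 0.20 with D168A and -0.03 ± 0.27 with D168D, and neb, a chromosome-associated mitotic kinesin, at 0.03 ± 0.08 and 0.0023 ± 0.11. Klp59C, a microtubule-depolymerising kinesin, was at -0.06 ± 0.0032 and -0.11 ± 0.16. Its relative Klp59D is listed at 0 on 3 of 4 arrays and at -0.20 on the Cy3 array of D168D, so little can be read from it. Over the 10 spindle kinesins the form means ran from -0.12 to 0.07 with D168A and from -0.11 to 0.30 with D168D, with medians of -0.04 and 0.03, and 0 of 10 were called in either form.

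Of the measured genes, 5 serve transport. Klc, the light chain through which conventional kinesin takes hold of cargo, was at 0.02 and 0.01 on the D168A arrays and at 0.35 and -0.12 on the D168D arrays. Klp98A, a motor of signalling endosomes, gave 0.04 and -0.18 on the D168A arrays and 0.23 and 0.03 on those of D168D. It was thus above 0 on 3 of 4 arrays by small amounts. Klp68D, a subunit of the heterotrimeric kinesin of cilia and axons, was at -0.04 ± 0.21 and 0.08 ± 0.26, and Khc-73, which works with the scaffold Dlg in spindle orientation, at -0.12 ± 0.13 and 0.10 ± 0.09.

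Kif3C, named for a mammalian kinesin of the same heterotrimeric class, was at 0.26 and 0.19 on the D168A arrays and at -0.23 and -0.63 on the D168D arrays. Both D168A arrays were above 0 and both D168D arrays below it, and 4.91% of all genes have the forms on opposite sides of 0 in this way, in either direction. Its form means were 0.22 ± 0.04 and -0.43 ± 0.20, the latter being the largest departure of any motor gene from zero in a form, a fold of 1.34. The gene has a single probe. The other transport genes ran from -0.12 to 0.01 with D168A, and 0 of the 5 transport genes were called.

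Another 2 kinesin genes fell outside these roles. Klp31E was at 0.23 and 0.27 on the D168A arrays and at 0.46 and 0.07 on the D168D arrays, which puts it above 0 on all 4. Kif19A, whose mouse namesake limits the length of motile cilia, was at -0.01 ± 0.10 with D168A and 0.07 ± 0.08 with D168D.

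Cytoplasmic dynein was represented by its heavy chain, Dhc64C, which holds the motor domain, and by its light intermediate chain, Dlic, which links the motor to adaptors. Dhc64C was at -0.15 and -0.15 on the D168A arrays and at -0.28 and 0.43 on the D168D arrays. The D168A arrays thus agreed closely in the gene mean, although the probes stood on both sides of 0. The D168D arrays fell on opposite sides of 0. Dlic gave 0.05 and -0.31 on the D168A arrays and -0.05 and -0.12 on those of D168D, and its form means were -0.13 ± 0.18 and -0.09 ± 0.04.

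The list of axonemal dynein heavy chains had 6 measured genes. Dhc93AB was at 0.20 and 0.46 on the D168A arrays and at 0.23 and 0.43 on the D168D arrays. It was above 0 on all 4 arrays, and its form means of 0.33 ± 0.13 and 0.33 ± 0.10, or 1.25-fold and 1.26-fold, were the highest of the 25 genes in both forms. Dhc36C gave 0.13 and -0.04 on the D168A arrays and 0.02 and -0.79 on those of D168D. Its D168D mean of -0.38 ± 0.40 therefore rests on 1 array. Dhc98D stood at -0.02 and -0.45 on the D168A arrays and at -0.44 and 0.01 on the D168D arrays, which gave nearly equal form means of -0.24 ± 0.22 and -0.22 ± 0.23 from arrays that differed by more than 0.4 within each form. Dhc62B was at 0.18 ± 0.17 and 0.11 ± 0.13, Dnah3 at 0.06 ± 0.11 and -0.11 ± 0.15, and Dhc1 at -0.03 ± 0.09 and -0.04 ± 0.01. Of the 6, 4 were above 0 with D168A and 2 with D168D, and 0 were called in either form. Among 8 measured axonemal and intraflagellar genes outside the name rule, 0 were called, and 3 and 4 were above 0 in the forms.

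**Figure D2:**
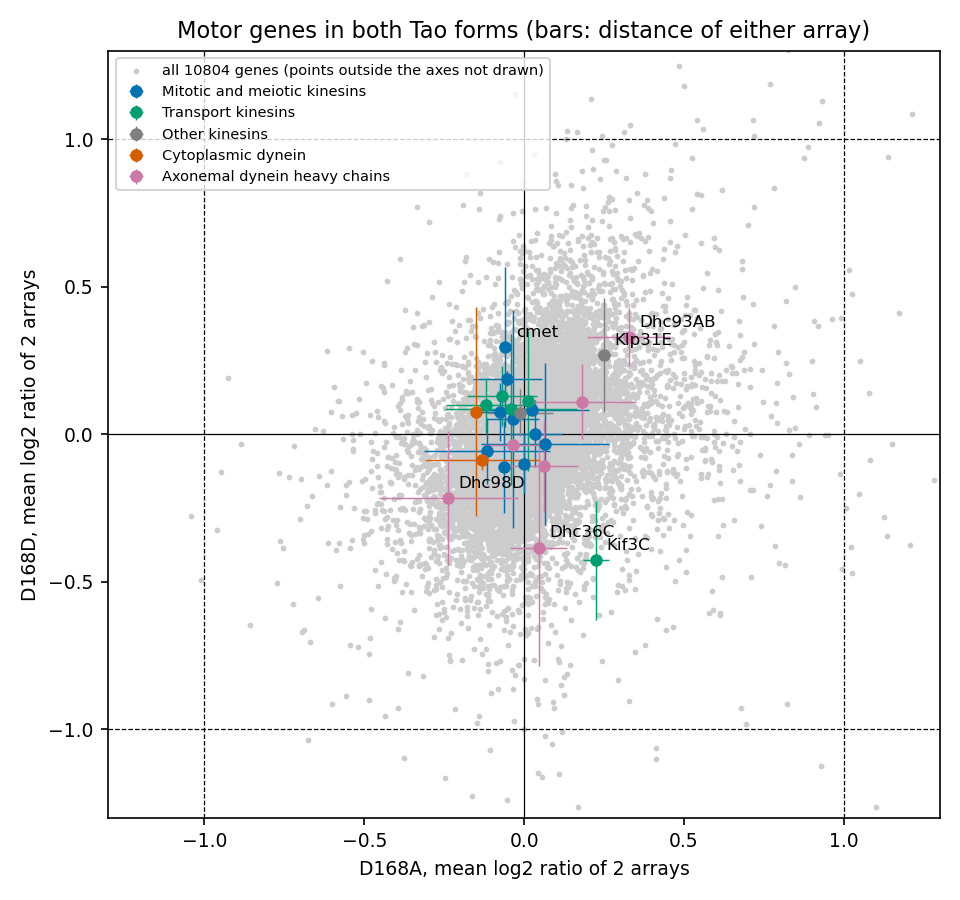
Mean log2 ratio of both arrays with D168A (x axis) and with D168D (y axis) for the 25 motor genes, coloured by role, over all genes in grey; bars reach to the values of the single arrays, and dashed lines mark 2-fold. The motor genes lie inside the 2-fold square, with Dhc93AB highest in both forms and Kif3C below 0 with D168D only.

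The second question was which motor genes moved together in both forms, for which driver, maternal genotype and kinase are all shared candidates. This was tested with limma on the 2 form means against 0, two-sided, with Benjamini-Hochberg adjustment over all 10804 genes, and it measures the spread between the pairs. At an adjusted p under 0.05 it called 0 of 25 motor genes, beside 0.0555% of all genes. At an unadjusted p under 0.05 it held 3 of 25 motor genes (12.0%), beside 13.2% of all genes, so the motors' share is near the background. These 3 were Dhc93AB at 0.33 (SE 0.08, limma adjusted p = 0.337), Klp31E at 0.26 (SE 0.08, limma adjusted p = 0.366) and Dhc98D at -0.23 (SE 0.08, limma adjusted p = 0.372). Dhc93AB and Klp31E were above 0 on 4 of 4 arrays and were the only motor genes to keep one sign throughout, where 17.6% of all genes did so. Dhc98D was below 0 on 3 of 4 arrays. Its SE was near the median SE of 0.09 over the motor genes and over all genes. Its form means nearly coincided, whereas its arrays did not. The 2 probes of Dhc98D gave -0.47 and 0.50 on the Cy5 array of D168D. With D168A and D168D, one probe had form means of -0.27 and -0.44 and the other -0.20 and 0.01. The near equality of the form means thus holds for the average of the probes and not for either probe.

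The 95% intervals show how far the measured mean ratios are uncertain from the spread between the pairs. Over the 25 genes they ran from -0.52, the lower bound of Kif3C, to 0.54, the upper bound of Dhc93AB. The bound farthest from zero, that of Dhc93AB, corresponds to a ratio of 1.46-fold. Errors ran from 0.08 to 0.17. With 2 pairs there is 1 residual degree of freedom per gene, and the error is moderated toward that of all genes, so these intervals lean on the spread of other genes. For the cytoplasmic dynein heavy chain Dhc64C the interval was -0.29 to 0.21, for Klp61F -0.21 to 0.23, for ncd -0.30 to 0.13 and for Klc -0.16 to 0.28.

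**Figure D3:**
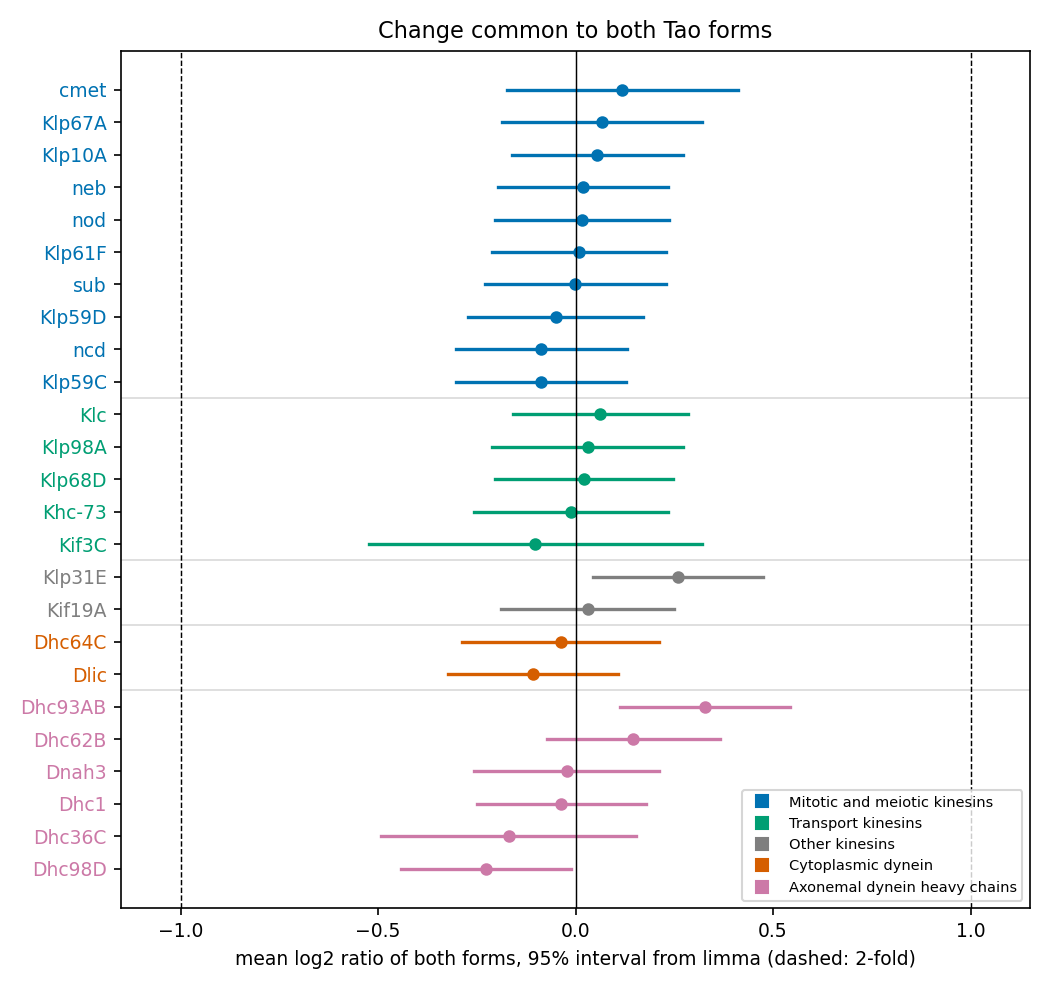
Mean log2 ratio of both forms (points) with its 95% interval from limma (lines) for each motor gene, in rows grouped by role; dashed lines mark 2-fold. The intervals of Dhc93AB, Klp31E and Dhc98D leave out 0 before adjustment, and no interval reaches beyond 0.54 in size.

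The third question was whether the forms differed. Effects of the driver and of the mothers that both pairs share drop out of that contrast. D168A was set against D168D on the Cy3 arrays and again on the Cy5 arrays, and 2-fold was asked of both. It did so for 0 of 25 motor genes, beside 0.139% of all genes, and it could not be tested, since each form is 1 replicate. The largest difference was that of Kif3C, at 0.49 on the Cy3 arrays and 0.81 on the Cy5 arrays, with a mean of 0.65 ± 0.16. Next came Dhc36C at 0.43 ± 0.31 and, in the other direction, cmet at -0.35 ± 0.27. Both had the same sign in the 2 orientations but sizes that differed several-fold, at 0.12 and 0.74 for Dhc36C and at -0.62 and -0.09 for cmet.

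Smaller differences were steadier between orientations. Klp67A was lower with D168A by -0.16 and -0.32, a mean of -0.24 ± 0.08. Klp98A was lower by -0.19 and -0.21, a mean of -0.20 ± 0.01, and sub by -0.16 and -0.13, a mean of -0.15 ± 0.01. For Klp67A and Klp98A both probes were lower with D168A, at -0.20 and -0.28 and at -0.16 and -0.24. The probes of sub disagreed, at 0.14 and -0.44. In all, 10 of 25 motor genes had a difference of the same sign in both orientations, 5 in each direction, which is 40.0% beside 39.3% of all genes. By their mean difference 16 of 25 motor genes, 12 of them kinesins, were lower with D168A, beside 44.7% of all genes, and the median was -0.04 beside 0.03. That direction turned with the dye orientation. On the Cy3 arrays 15 of 25 motor genes were higher with D168A (median 0.02, as over all genes), and on the Cy5 arrays 14 of 25 were lower (median -0.09, beside 0.02). The forms stood on the same side of 0 for 11 of 25 motor genes, whereas they did so for 67.4% of all genes.

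The arrays of opposite dye gave unlike pictures of the motors. With D168A, 20 of 25 motor genes had a higher ratio on the Cy3 array than on the Cy5 array, beside 47.9% of all genes. The medians of the 25 were 0.06 and -0.12 on these arrays, beside 0.00078 and 0.0140 over all genes. In 14 of 25 (56.0%) the ratio was above 0 in the first orientation and below 0 in the second, against 25.6% of all genes. The reverse was shown by 1 motor gene, Dnah3, beside 3007 of all 10804 genes. All 5 transport kinesins and 9 of 10 spindle kinesins were higher in the Cy3 orientation, and 2 of 5 and 0 of 10 of them were above 0 on the Cy5 array. With D168D, 16 of 25 were higher in the Cy3 orientation, beside 50.5% of all genes, and the medians were 0.07 and -0.02. A higher ratio on the Cy3 array was not particular to the motors. With D168A it held for 8 of 10 germ-line markers, 11 of 14 kinesin adaptors and spindle partners and 6 of 8 tubulin genes. With D168D it held for 9, 9 and 7 of these. Dynein partners gave 8 and 9 of 20, neuronal markers 3 and 5 of 8, and axonemal and intraflagellar genes outside the rule 5 of 8 in each form. A dye effect of that kind cancels in the mean of both orientations, and its part in the values of a single array was not tested.

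**Figure D4:**
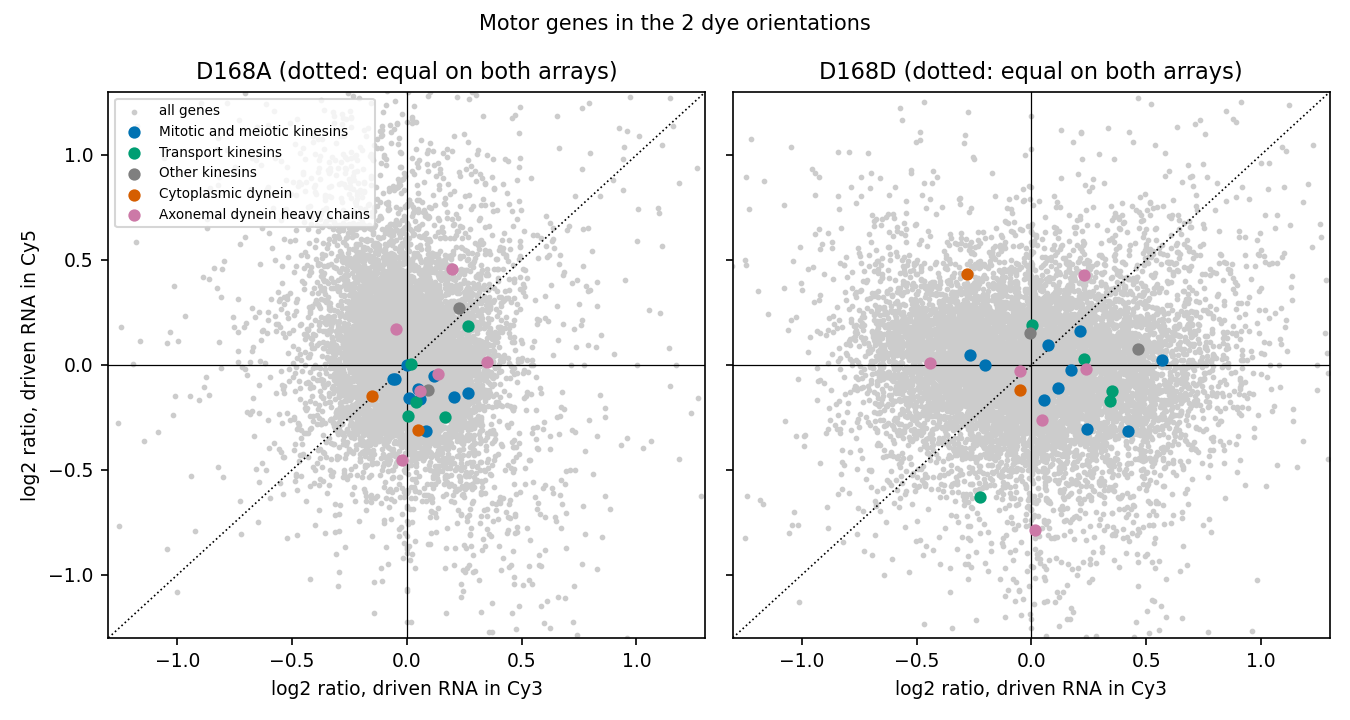
Log2 ratio on the Cy3 array (x axis) and the Cy5 array (y axis) of D168A (left) and D168D (right), with motor genes in colour over all genes in grey; points outside the axes are not drawn. With D168A 20 of 25 motor genes lie below the dotted line of equal values, and 14 lie to the lower right of the zero lines.

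The distance of an array from its form mean had a median of 0.10 over the motor genes with D168A and 0.13 with D168D, beside 0.11 and 0.16 over all genes. The same motors had a median size of form mean of 0.06 and 0.10, beside 0.10 and 0.15. For most motor genes the ratio was therefore within the disagreement of its own arrays. The arrays fell on the same side of 0 for 9 of 25 motor genes with D168A and for 10 of 25 with D168D, beside 45.9% and 47.4% of all genes.

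Single probes, named here after their values were seen, varied more than gene means. Of the 25 genes, 10 had 1 probe, 11 had 2, 3 had 3 and Dnah3 had 5. Among the 184 probe values, 1 reached 2-fold. It belonged to Dhc64C on the Cy5 array of D168D, where its probes gave 1.14, 0.08 and 0.08, so the value of 0.43 for the gene on that array comes from 1 probe. With D168A the Dhc64C probes had form means of -0.34, -0.29 and 0.18. A probe of Klp61F was at 0.998, just under the threshold, on the Cy3 array of D168D and at -0.61 on the other, while the second probe of the gene gave -0.16 and -0.03. The probes of sub were at 0.80 and -0.46 on the first of these arrays. Those of Dnah3 ran from -0.71 to 0.85 there, and their mean was 0.05. The probes of Klp31E gave 0.72 and -0.18 on the Cy5 array of D168A, so that the sign of the gene on that array rests on 1 probe. For Klp10A the probes gave -0.06, -0.32 and 0.66 on the Cy5 array of D168D, so its sign there rests on 1 probe as well. The form means of the probes of a gene differed by at most 0.93, for Khc-73 with D168D, and by a median of 0.13 with D168A and 0.34 with D168D over the 15 genes with several probes. Dhc93AB, Dhc36C and Kif3C have 1 probe each and thus no such check.

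**Figure D5:**
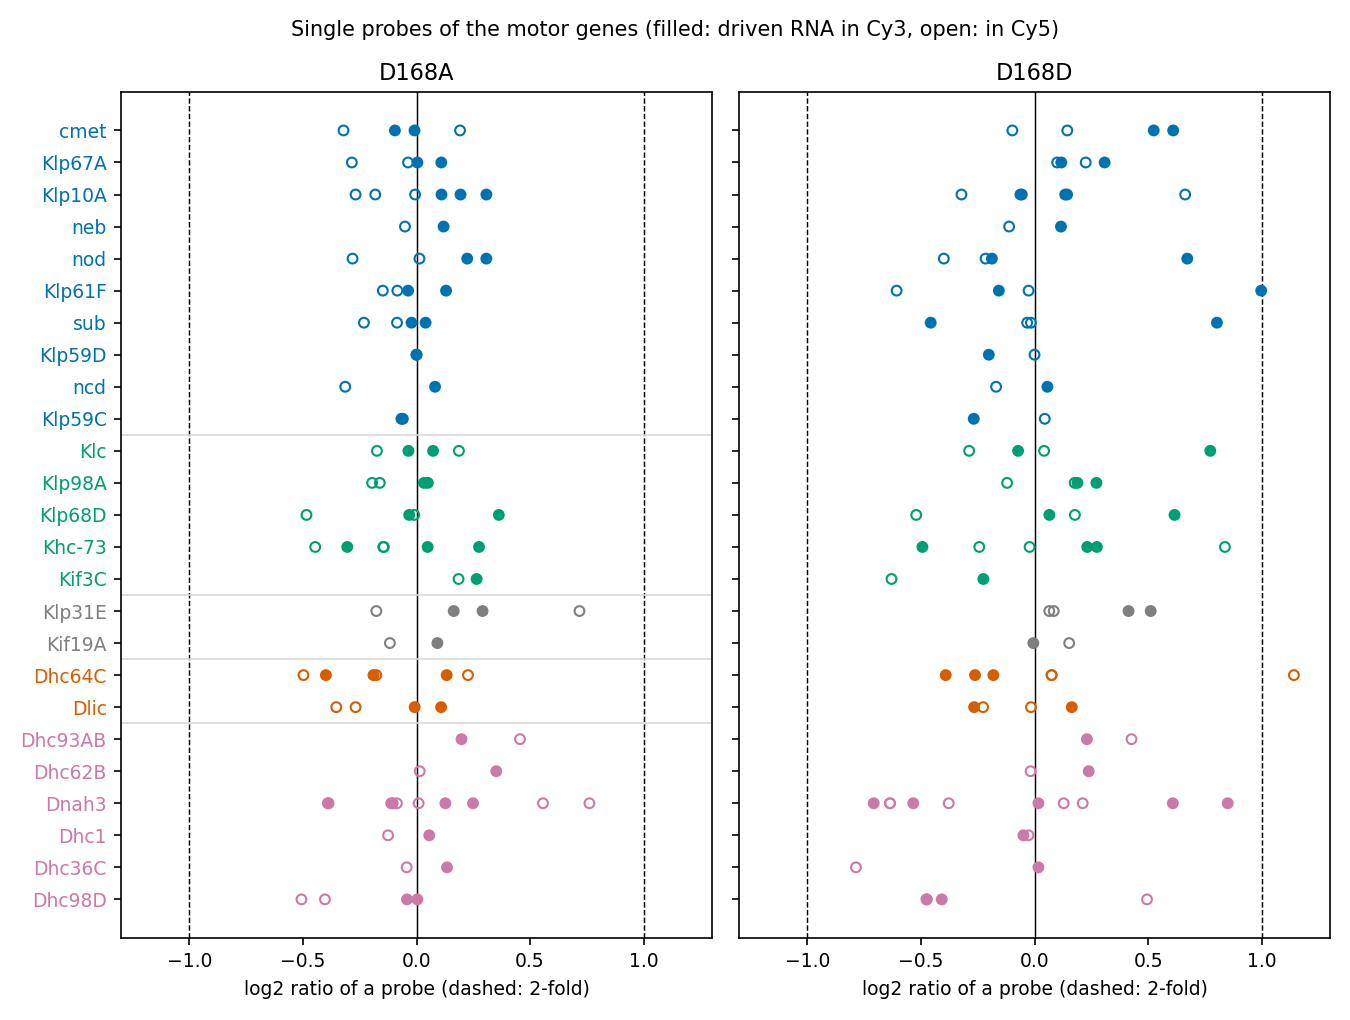
Log2 ratio of every probe (x axis) of the 25 motor genes (rows) with D168A (left) and D168D (right); filled points are Cy3 arrays, open points Cy5 arrays, and dashed lines mark 2-fold. A single value, of a Dhc64C probe at 1.14, lies beyond 2-fold.

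Partners of the motors were taken as lists. Of 25 listed dynein subunits, dynactin subunits and dynein regulators, 20 were measured. They had medians of 0.03 in each form, with 14 and 12 above 0 and 0 called. Of these, ctp and Cdlc2, the paralogous dynein light chains, were the only ones to keep one sign on all 4 arrays, ctp at 0.10 ± 0.00088 and 0.35 ± 0.18 and Cdlc2 at -0.06 ± 0.06 and -0.21 ± 0.19. Both missed the threshold common to the forms (limma adjusted p = 0.396 and 0.481).

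Of 21 listed kinesin adaptors and spindle partners, 14 were measured, with medians of -0.01 and 0.05 and 0 called. Miro, the mitochondrial GTPase that ties mitochondria to kinesin and dynein, was the 1 gene of that list with one sign throughout. It was at 0.31 and 0.69 on the D168A arrays and at 0.87 and 0.48 on the D168D arrays. Its mean of 0.59 (SE 0.09, above 0 on 4 of 4 arrays) exceeded that of every motor gene, yet it missed the threshold (limma adjusted p = 0.283).

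Of 10 listed tubulin genes, the tracks on which motors move, 8 were measured, with medians of 0.02 and 0.10 and 0 called. gammaTub37C, the maternal gamma-tubulin of the centrosome, gave 0.38 and 0.30 on the D168A arrays and 0.57 and 0.48 on those of D168D, and was the only one of the 8 with one sign on all arrays. Its mean of 0.43 (SE 0.09) missed the threshold as well (limma adjusted p = 0.333). None of these lists was tested against the motors.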

How the data were processed

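The authors deposited log10 ratios, 1 per feature. The submitters' processing notes name Agilent Feature Extraction 7.1; its settings, dye normalization and any centring are not given in these sources. The log base rests on that software's usual output and on the largest size of 2 among the values. On both Cy3 arrays all zeros are negative zeros (446 and 583 features), as after a change of sign, and Tao is high on all 4 arrays, so the values were read as driven over non-driven and no sign was turned. Spot intensities were not used, and precision is limited by there being 4 arrays and by the poor agreement of the arrays of a form over all genes. The 17328 of 22575 features with 1 gene symbol were converted to log2 and averaged into 10804 genes. All 25 motor genes matched the RefSeq table by gene ID.

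Arrays of a form were averaged as 1 replicate. The common contrast used limma 3.58.1 (lmFit and eBayes, R 4.3.3). It was also run on simulated data whose deviations were drawn independently for the 2 forms, whereas the measured form means correlated at 0.38 over all genes. That run checks the code and not the error rate in these data. Nothing says that cells came from more than 1 collection per form, so the p-values rest on variation between 2 pairs, which may be technical. Members and lists were chosen with earlier results of these data known. Values on every array are given for motor genes with one sign on all 4 arrays (up to 8), the 6 with the largest difference of one sign between forms, those reaching 2-fold on an array or with probes over 1 apart in a form mean (0 of each), and a fixed set of cytoplasmic and spindle motors. Dhc98D and Klp59D were added after their values were seen. Of other lists, up to 3 genes with one sign throughout are named.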

Additional observations from a re-analysis of the deposited data

Results flagged for a closer look

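For 2 of the 25 motor genes (8.0%), both D168A arrays lay on one side of 0 and both D168D arrays on the other, a pattern that 4.91% of all genes have. Kif3C had form means of 0.22 ± 0.04 (D168A) and -0.43 ± 0.20 (D168D) and thus a difference of 0.65. cmet had -0.06 ± 0.01 and 0.30 ± 0.27, a difference of -0.35, and on the Cy5 array of D168D it stood only 0.02 above 0. Both probes of cmet had a lower mean with D168A, by -0.59 and -0.12, whereas Kif3C has 1 probe. The second cmet probe changed sign between orientations, at -0.53 on the Cy3 arrays and 0.29 on the Cy5 arrays. It was at -0.01 and 0.19 on the D168A arrays, so the pattern rests on the first probe. With 1 replicate per form neither difference was tested.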

How the results depend on the processing

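The count of called motor genes was 0 in each form, for the difference between forms and in limma, and it was 0 under each alternative run. These were 1.5-fold and 3-fold, the mean of both arrays alone, every probe required to pass, centred arrays, genes with a deposited 0 left out, values read as log2, limma on 4 arrays as replicates, by probe and on either dye orientation alone, and (chosen after seeing the data) a single orientation reaching 2-fold. Values read as log2, limma by probe and limma on the Cy5 arrays alone called 0 of all genes, so the 0 there was fixed. The others called 5 to 265 of all genes with D168A, 6 to 196 with D168D, 3 to 438 for the difference and 2 to 15 in limma. No motor gene reached 2-fold on any array, and all form means were within 1.5-fold. Within a form, the 0 at 1.5-fold, at 3-fold, on the mean, by every probe and in a single orientation followed from those values. These settings are therefore no separate check. In limma 3 motor genes had an unadjusted p under 0.05, and 0 to 3 under the alternatives, with smallest adjusted p from 0.235 to 0.672. The median of the motor genes moved from -0.035 to 0.056 with D168A on the Cy3 array alone, and from 0.074 to -0.017 with D168D on the Cy5 array alone; the cause was not tested. Of the 25 motor genes, the mean of both forms changed sign for 7 on the Cy3 arrays alone and for 10 on the Cy5 arrays alone, and 0 crossed the threshold. No paired analysis was possible because each form has 1 replicate, and leaving one out leaves no residual degrees of freedom. Signal over background is unknown, so dim motor genes cannot be told from unchanged ones.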
